A study of Mus musculus with 4 samples.

Results

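T cells carrying a pair of productive T-cell receptor alpha chains were the subject. A cell belonged to the group when its high-confidence, full-length, productive contigs held exactly 1 beta chain (TRB) and exactly 2 alpha chains (TRA). There were 1334 such dual-TRA cells among 11035 cells with 1 TRB and 1 or 2 TRA, and among 13345 called cells in all. The other 9701 paired cells had a single TRA. No called cell held over 2 productive TRA, and every dual-TRA cell has both defining chains of an alpha-beta T cell by the rule itself. Gene expression of these cells was not analysed here.

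The cells came from pancreatic islets in 4 single-cell receptor libraries, 2 labelled Tet2KO NOD and 2 labelled NOD, numbered as sets 1 and 2 in each genotype. NOD mice develop autoimmune diabetes spontaneously. Tet2KO NOD mice carry the Tet2-/- allele, made on a B6 background and crossed onto NOD for over 14 generations, and they lack an enzyme that oxidises methylcytosine. Each library pooled the islets of 4 to 6 mice. The design text gives an age of 10 to 13 weeks, while the protocol counts those weeks after an event abbreviated BTM and names bone marrow donors among the NOD mice, so age and transplantation were not settled here. The pool was the replicate (n = 2 per genotype), and the exact tests measure the spread between these pools.

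The TRA locus is rearranged on both copies of its chromosome in a developing thymocyte, and rearrangement goes on until a receptor is positively selected. Each round joins a TRAV segment lying further upstream to a TRAJ segment lying further downstream and deletes what lay between. TRB, in contrast, is under strict allelic exclusion, so a cell usually makes a single TRB but can make a pair of TRA. Cells with a pair of receptors have been studied in NOD mice because the second receptor can have a specificity that was not selected in the thymus.

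The largest dual receptors show what such a cell looks like. In each library the TRB clone with the most dual-TRA cells is given with its commonest TRA pair, and a further receptor was chosen after its values were seen because both TRA use the same V and J. A TRB clone is all paired cells of a library with the same TRBV, TRBJ and CDR3 nucleotides. Within a pair, the TRA with more UMIs (unique molecular identifiers, counting captured RNA molecules) is called the higher TRA and the other the lower TRA. The sequences are CDR3 nucleotides as assembled by the authors, 5′ to 3′. Capitals mark the bases that match neither the germline V end nor the germline J start of GRCm38. NOD alleles that differ from that build also appear as capitals.
Tet2KO NOD 1, TRB, TRBV20 TRBJ2-5: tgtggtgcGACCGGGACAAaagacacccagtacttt
Tet2KO NOD 1, lower TRA, TRAV15D-1-DV6D-1 TRAJ12: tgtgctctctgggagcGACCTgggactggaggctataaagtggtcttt
Tet2KO NOD 1, higher TRA, TRAV2 TRAJ30: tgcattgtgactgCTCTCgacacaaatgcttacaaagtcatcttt
Tet2KO NOD 2, TRB, TRBV13-1 TRBJ2-7: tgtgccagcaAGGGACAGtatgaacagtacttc
Tet2KO NOD 2, lower TRA, TRAV13-2 TRAJ26: tgtgctatGGTccagggattaaccttc
Tet2KO NOD 2, higher TRA, TRAV3-3 TRAJ40: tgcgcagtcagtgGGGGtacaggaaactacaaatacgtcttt
NOD 1, TRB, TRBV16 TRBJ1-4: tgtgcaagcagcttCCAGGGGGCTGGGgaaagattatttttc
NOD 1, lower TRA, TRAV5-4 TRAJ50: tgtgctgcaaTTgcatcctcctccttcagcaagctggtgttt
NOD 1, higher TRA, TRAV18 TRAJ44: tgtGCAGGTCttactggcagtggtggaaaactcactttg
NOD 2, TRB, TRBV16 TRBJ2-1: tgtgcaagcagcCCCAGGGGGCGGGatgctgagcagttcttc
NOD 2, lower TRA, TRAV16N TRAJ42: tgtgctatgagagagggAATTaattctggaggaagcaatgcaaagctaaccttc
NOD 2, higher TRA, TRAV9-1 TRAJ49: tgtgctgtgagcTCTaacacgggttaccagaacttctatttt
NOD 1, TRB, TRBV1 TRBJ2-4: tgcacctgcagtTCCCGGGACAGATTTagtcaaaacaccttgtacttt
NOD 1, lower TRA, TRAV21-DV12 TRAJ58: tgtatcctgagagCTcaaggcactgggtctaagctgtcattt
NOD 1, higher TRA, TRAV21-DV12 TRAJ58: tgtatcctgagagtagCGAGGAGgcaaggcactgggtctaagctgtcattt

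The Tet2KO NOD 1 clone joined TRAV2 (chr14:52567198-52568051, near the upstream end of the TRAV array) to TRAJ30 (chr14:54189866-54189924), and TRAV15D-1-DV6D-1 (chr14:52863299-52863936) to TRAJ12 (chr14:54206553-54206610), all on the plus strand of GRCm38 in the GENCODE annotation. Both TRA were read in 38 of its 48 cells, 4 cells had only the lower TRA and 6 only the higher TRA. The lower TRA had a median of 4 UMIs and the higher TRA 12, and the higher TRA led in 37 of the 38 cells. The Tet2KO NOD 2 clone held its pair in 9 of 10 cells.

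The NOD 1 clone was the TRB clone of the largest paired clonotype of that library. Both of its TRA were read in 106 of 149 cells, 30 cells had only TRAV5-4 with TRAJ50 and 13 only TRAV18 with TRAJ44. Both chains had a median of 8 UMIs, TRAV18 leading in 52 cells, TRAV5-4 in 42, with 12 ties. The NOD 2 clone held its pair in 42 of 55 cells, both chains with a median of 5 UMIs, each leading in 19 cells, with 4 ties. Its lower TRA joined TRAV16N to TRAJ42 and so belonged to the TRAV16 family with TRAJ42, a combination known from NOD T cells specific for the islet autoantigen IGRP, and 11 cells had that TRA alone while 2 had only TRAV9-1 with TRAJ49. No specificity was measured here. The TRAV21-DV12 pair was read in 5 of 7 cells of its clone, and its TRA were told apart by their junctions alone. The other 2 cells of that clone had neither the pair nor either of its TRA alone. The TRB of these 5 clones was found in no paired cell of another library.

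Dual-TRA cells made up 10.6% and 10.8% of the paired cells in the Tet2KO NOD pools (170 of 1604 and 151 of 1392), against 12.5% and 12.8% in the NOD pools (696 of 5564 and 317 of 2475). The genotypes did not overlap. The share averaged 10.7% ± 0.176 in Tet2KO NOD and 12.7% ± 0.211 in NOD (SD, n = 2 each), a difference of -1.94 percentage points. The exact two-sided permutation test over the 4 libraries gave p = 0.33, the smallest value it can reach, and an adjusted p of 0.444 over the 4 comparisons between genotypes. Taken by set, the pools numbered 1 differed by -1.91 points and those numbered 2 by -1.96. After each cell was thinned to 10 receptor UMIs, which left out 331, 226, 981 and 267 cells of Tet2KO NOD 1, Tet2KO NOD 2, NOD 1 and NOD 2, the expected shares were 10.8% and 11.2% in the Tet2KO NOD pools, against 12.9% and 12.1% in the NOD pools. Without TRB clones of 10 or more cells the difference was -0.716 points, with genotypes that overlapped (exact p = 1), and in TRB clones of a single cell it was -1.24 points.

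The share did not rise or fall steadily with clone size in any pool. In TRB clones of a single cell it was 10.9% and 10.6% in Tet2KO NOD 1 and 2, against 10.9% and 13.0% in NOD 1 and 2. In clones of 2 to 4 cells it was 13.2% and 11.2% in Tet2KO NOD, and 12.6% and 12.6% in NOD. In clones of 5 to 9 cells it was 7.41% and 12.0% in the Tet2KO NOD pools, against 7.34% and 6.41% in the NOD pools. In clones of 10 or more cells it was 9.73% and 10.2% in the Tet2KO NOD pools, against 19.0% and 14.9% in the NOD pools. These cells belong to few clones, so the Wilson 95% intervals drawn for them cover counting error only. The difference between clone sizes was not tested between genotypes.

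**Figure D1:**
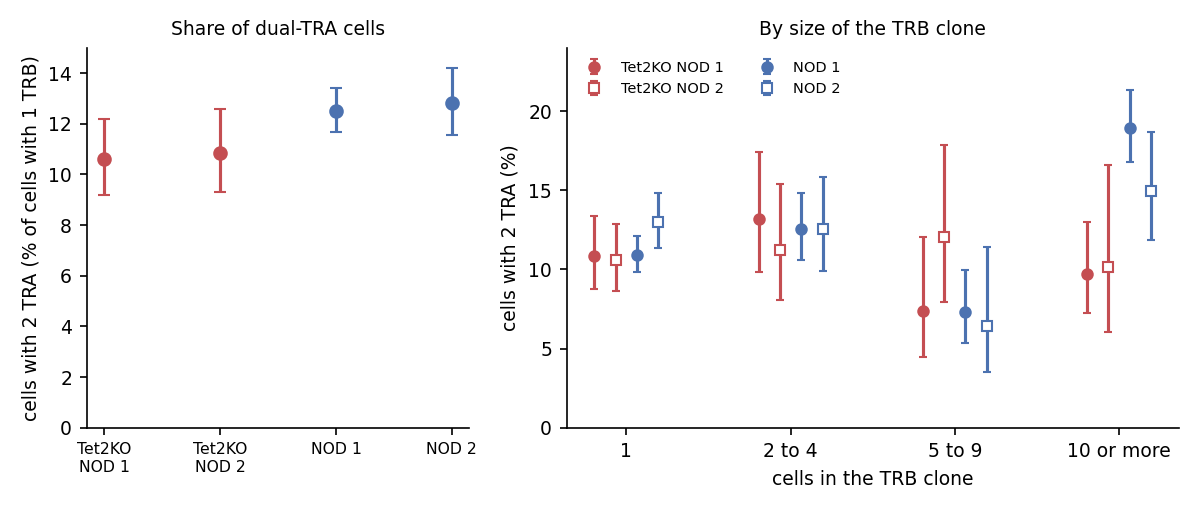
The left panel plots the percent of paired cells (1 TRB with 1 or 2 TRA) that held 2 TRA in each pool, and the right panel the same percent by number of cells in the TRB clone; bars are Wilson 95% intervals and cover counting error only. Both Tet2KO NOD pools (10.6% and 10.8%) lie below both NOD pools (12.5% and 12.8%). By clone size, they do so in clones of 1 cell and, with the widest gap, in clones of 10 or more. In clones of 2 to 4 cells the genotypes overlap. In clones of 5 to 9 cells both Tet2KO NOD pools lie above both NOD pools.

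Cells with over 1 TRB, which were not members, held 2 TRA more often. Among them the share was 25.8% and 42.4% in Tet2KO NOD 1 and 2 (17 and 28 of 66 each), against 26.2% and 31.5% in NOD 1 and 2 (103 of 393 and 40 of 127). Droplets that hold a pair of cells would fall in this class, and how many dual-TRA cells with 1 TRB are such droplets was not tested. Of the barcodes, 81 were called in over 1 library, and they took in 18 dual-TRA and 114 single-TRA cells, with the same TRB in both libraries for 1 barcode. Without them the difference between genotypes in the dual share was -1.93 points. None of the 846 distinct dual receptors was found in over 1 library.

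The median lower TRA had 3 and 4 UMIs in the dual-TRA cells of Tet2KO NOD 1 and 2, against 5 and 5 in those of NOD 1 and 2. The higher TRA had 7 and 7 UMIs in Tet2KO NOD and 8 and 8 in NOD. In single-TRA cells the sole TRA had 5 and 6 UMIs in Tet2KO NOD and 5 and 6 in NOD, so in every pool the sole TRA lay at or above the lower TRA of dual-TRA cells and below their higher TRA. The ranking by UMIs fixes the order of lower and higher. Over all 1334 cells, 155 (11.6%) had the same number of UMIs for both TRA, 53 (3.97%) had a lower TRA resting on 1 UMI, and 1045 (78.3%) had at least 3 UMIs for the lower TRA.

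The lower TRA supplied on average 34.0% and 37.7% of a cell's TRA UMIs in Tet2KO NOD 1 and 2, against 38.1% and 38.2% in NOD 1 and 2. The difference was -2.31 points (exact permutation p = 0.33, the smallest possible, adjusted p = 0.444). It rested mostly on Tet2KO NOD 1: without that pool it was -0.451 points, and without the largest TRB clone of each library it was -0.703.

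**Figure D2:**
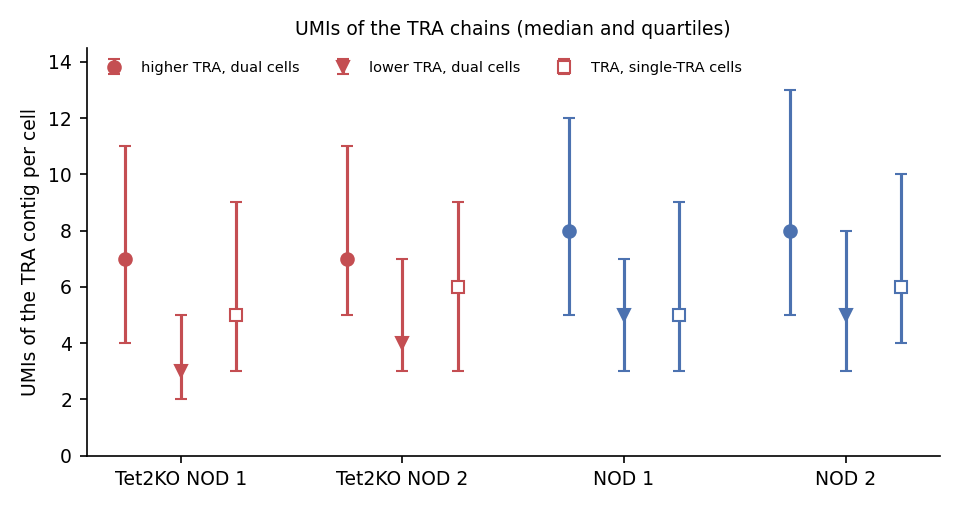
Median UMIs (points) with quartiles (bars) of the higher TRA and the lower TRA of dual-TRA cells and of the sole TRA of single-TRA cells, by pool; red pools are Tet2KO NOD and blue pools NOD. The lower TRA has a median of 3 to 5 UMIs, the higher TRA 7 or 8 and the sole TRA 5 or 6.

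TRB was read somewhat more deeply in dual-TRA cells. Its median was 11, 12, 12 and 15 UMIs in the dual-TRA cells of Tet2KO NOD 1, Tet2KO NOD 2, NOD 1 and NOD 2, against 9, 11, 10 and 13 in the single-TRA cells of the same pools. The difference averaged 1.75 UMIs and was positive in 4 of 4 libraries (exact sign-flip permutation p = 0.13, the smallest possible, adjusted p = 0.219 over the 7 comparisons within libraries). Without TRB clones of 10 or more cells it was 0.5. The part of this depth in whether a second TRA was read was not tested. In cells with 1 to 4 TRB UMIs the dual share was 9.69% and 5.53% in Tet2KO NOD 1 and 2, against 7.96% and 10.5% in NOD 1 and 2. In cells with 20 or more TRB UMIs it was 11.3% and 10.9% in the Tet2KO NOD pools, against 15.4% and 15.2% in the NOD pools.

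Nonproductive TRA, rearrangements out of frame or with a stop codon, were rare beside a productive pair. Such a contig was present in 6.47% and 3.31% of the dual-TRA cells of Tet2KO NOD 1 and 2 and in 1.72% and 1.89% of those of NOD 1 and 2. In single-TRA cells the shares were 24.9% and 26.0% in Tet2KO NOD and 24.5% and 29.0% in NOD. The difference averaged -22.7 points, was negative in 4 of 4 libraries and ranged from -27.1 to -18.4 points (exact sign-flip permutation p = 0.13, the smallest possible, adjusted p = 0.219). A cell has a TRA locus on each of 2 chromosomes, so a nonproductive rearrangement beside a productive pair goes beyond these. The rule that chose dual-TRA cells thus largely set the direction of this difference in advance, and its p value is not support for it. Nonproductive TRB, which the number of TRA does not limit, were present in 10.6%, 9.93%, 7.18% and 7.57% of dual-TRA cells of Tet2KO NOD 1, Tet2KO NOD 2, NOD 1 and NOD 2, against 7.04%, 7.57%, 8.71% and 8.34% of single-TRA cells, so the values of both classes lay between 7.04% and 10.6%.

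Clonal expansion of dual-TRA against single-TRA cells had no common direction across pools when every dual-TRA cell was counted. The share of cells in TRB clones of 2 or more cells was 55.3% in dual-TRA and 56.5% in single-TRA cells of Tet2KO NOD 1, and 43.0% and 41.4% in those of Tet2KO NOD 2. It was 52.9% in dual-TRA and 45.1% in single-TRA cells of NOD 1, and 41.6% and 42.5% in those of NOD 2. The mean difference was 1.83 points, positive in 2 of 4 libraries (exact sign-flip permutation p = 0.625). When both TRA needed at least 3 UMIs, the difference was 4.08, 6.68, 11.6 and 2.29 points in Tet2KO NOD 1, Tet2KO NOD 2, NOD 1 and NOD 2, positive in 4 of 4 libraries with a mean of 6.16 (exact p = 0.13, the smallest possible), while single-TRA cells had no such minimum. With all dual-TRA cells and without NOD 1 the difference was -0.139 points, and without the largest TRB clone of each library it was -5.18. That clone was mostly dual in NOD 1 (106 of 149 cells), NOD 2 (42 of 55) and Tet2KO NOD 1 (38 of 48). In Tet2KO NOD 2 it held 0 dual-TRA cells of 22. Its removal thus took mainly dual-TRA cells out of every pool except Tet2KO NOD 2. The dual minus single gap averaged 0.218 ± 1.99 points in Tet2KO NOD and 3.44 ± 6.08 points in NOD (SD, n = 2 each, exact permutation p = 0.667 for their difference of -3.23 points), and that difference was 1.07 points without NOD 1.

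Most expanded TRB clones held no dual-TRA cell, and most dual-TRA cells of expanded clones sat in clones that were largely dual. Of 258 TRB clones with 5 or more paired cells, 221 held no dual-TRA cell, 28 held them in at least 50% of their cells, and 9 held some below that, none between 30% and 50%. The 28 clones contained 395 of the 410 dual-TRA cells found in clones of this size, and in the median one 80.0% of cells were dual. By pool, clones with at least 50% dual cells numbered 4 of 49 in Tet2KO NOD 1 and 5 of 35 in Tet2KO NOD 2, against 14 of 131 in NOD 1 and 5 of 43 in NOD 2.

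**Figure D3:**
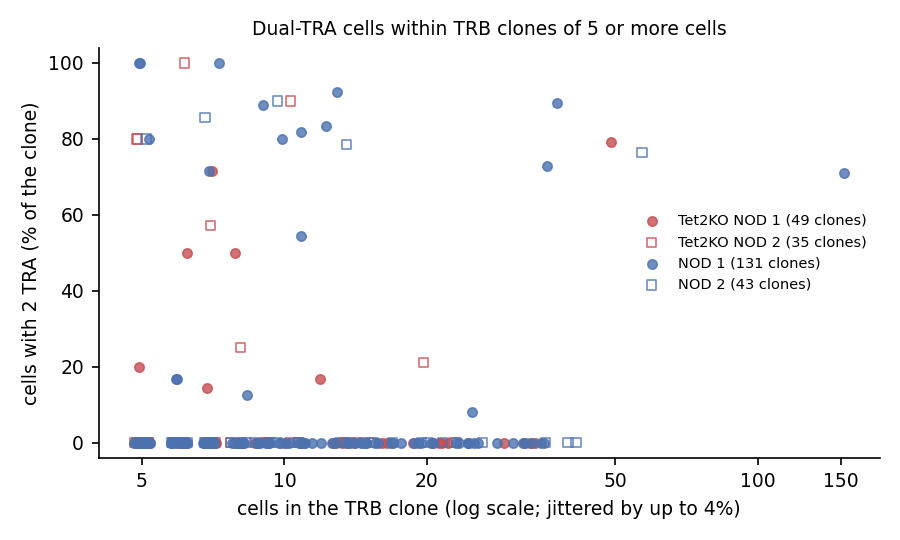
Each point is a TRB clone of 5 or more paired cells, placed by its number of cells (log scale) and the percent of them with 2 TRA; red points are Tet2KO NOD and blue points NOD, and filled and open symbols are sets 1 and 2. The clones lie at 0 (221 of 258), at 50% or above (28) or below 30% (9), with none between 30% and 50%.

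The same pair recurred across the cells of a clone. For each TRB clone of 2 or more cells holding a dual-TRA cell, the commonest pair was looked for in its other cells. Both TRA were found in 63 of 121 such clone-mates in Tet2KO NOD 1 (52.1%) and 37 of 80 in Tet2KO NOD 2 (46.2%), against 288 of 447 in NOD 1 (64.4%) and 100 of 128 in NOD 2 (78.1%). The share averaged 49.2% ± 4.11 in Tet2KO NOD and 71.3% ± 9.68 in NOD (SD, n = 2 each), a difference of -22.1 points with genotypes that did not overlap (exact permutation p = 0.33, the smallest possible, adjusted p = 0.444). Leaving out 1 library at a time gave differences from -29.0 to -15.3 points. Single clones weighed heavily: the clone with the most dual-TRA cells supplied 37 of the 63 clone-mates with both TRA in Tet2KO NOD 1 and 8 of 37 in Tet2KO NOD 2. In NOD 1 and NOD 2 it supplied 105 of 288 and 41 of 100. In Tet2KO NOD 2, a TRBV31 clone of 19 cells with the pair in 3 supplied 16 of the 19 clone-mates with neither TRA alone nor the pair, and in NOD 1 a TRBV20 clone of 25 cells supplied 20 of 31. Without the clone richest in such mates in each library the shares were 52.6% and 56.5% in Tet2KO NOD 1 and 2, and 67.8% and 79.4% in NOD 1 and 2.

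Over all 166 such clones the pair was read in 2 or more cells in 112. Of 776 clone-mates, 488 carried both TRA, 107 only the lower, 122 only the higher and 59 neither or another TRA. Recovery was higher in deeper cells, by an amount that differed between pools. Of clone-mates with 10 or more TRB UMIs, 66.1%, 47.5%, 72.4% and 79.4% carried both TRA in Tet2KO NOD 1, Tet2KO NOD 2, NOD 1 and NOD 2, against 37.3%, 42.1%, 41.2% and 73.1% of those with fewer. Over all pools, which differ in level and depth, the shares were 70.3% and 44.0%. A further 675 of the 846 distinct dual receptors came from TRB clones of a single cell, where the pair cannot be looked for again.

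The TRAJ segments of a pair lay near each other. TRAJ numbers fall with distance from the V segments, and those of dual receptors ran from TRAJ58 (chr14:54157280-54157342) down to TRAJ2 (chr14:54217836-54217901). Each distinct dual receptor was counted once. The mean difference in TRAJ number between the TRA of a receptor was 8.22 and 8.61 in Tet2KO NOD 1 and 2 (107 and 114 receptors) and 9.48 and 9.33 in NOD 1 and 2 (408 and 217). Between TRA taken from different TRB clones among the dual receptors of the same pool it was 15.5 and 16.5 in Tet2KO NOD and 16.4 and 17.0 in NOD. The difference averaged -7.44 TRAJ numbers, was negative in 4 of 4 libraries, and lay between -7.61 and -7.28 when 1 library at a time was left out (exact sign-flip permutation p = 0.13, the smallest possible, adjusted p = 0.219). In bases the mean distance of a pair was 9.63 kb.

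Over all pools 43.0% of pairs lay within 5 TRAJ numbers, against 20.8% of TRA from different clones, and 8.63% used the same TRAJ, against 2.96%. Spearman's rho between the TRAJ numbers of higher and lower TRA was 0.67 and 0.65 in Tet2KO NOD 1 and 2 and 0.60 and 0.66 in NOD 1 and 2, a description across receptors that share a library. When the higher TRA used TRAJ58 to TRAJ40, the lower TRA did so in 73.4% of 323 receptors, against 41.4% of all lower TRA. When the higher TRA used TRAJ20 to TRAJ2, the lower TRA used TRAJ58 to TRAJ40 in 9.68% of 186. The same distance was measured in single-TRA cells that also held a nonproductive TRA: their productive and nonproductive TRA differed by 7.91 and 8.70 TRAJ numbers in Tet2KO NOD and 8.38 and 9.04 in NOD, against 16.0, 16.4, 16.4 and 16.3 between different clones of Tet2KO NOD 1, Tet2KO NOD 2, NOD 1 and NOD 2.

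**Figure D4:**
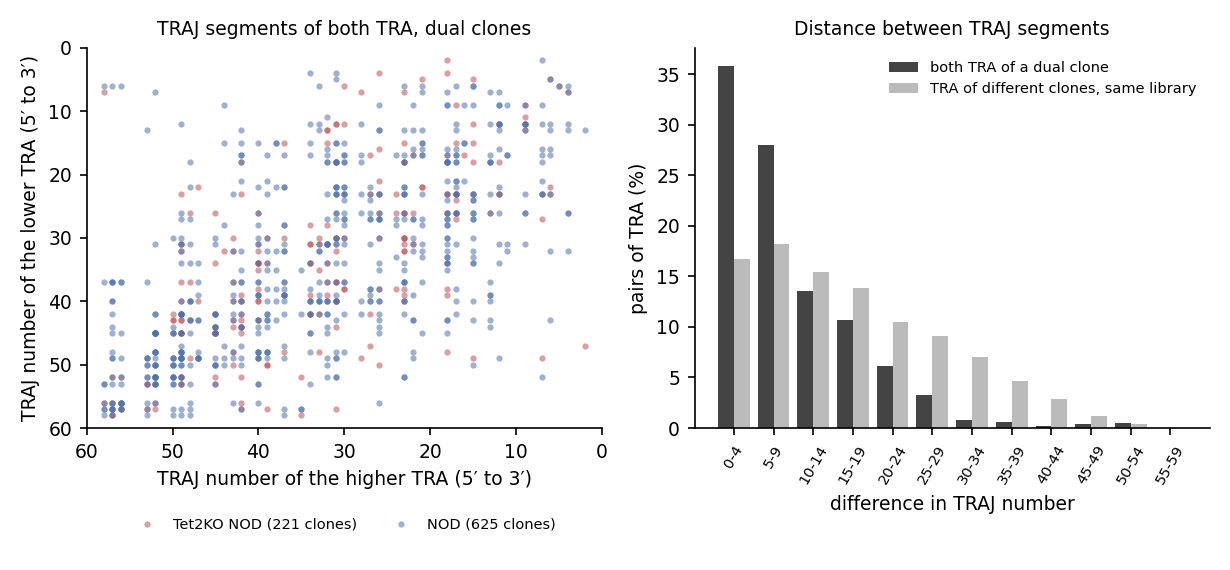
The left panel plots the TRAJ number of the lower TRA against that of the higher TRA for each of the 846 dual receptors, both axes running from the V-proximal to the V-distal end; red is Tet2KO NOD and blue NOD. The right panel gives the percent of TRA pairs by difference in TRAJ number, dark bars for pairs of a dual receptor and light bars for TRA of different clones: 35.8% of dual pairs differ by 4 or less, against 16.7%.

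TRAV segments of a pair were less bound to each other. Their mean distance, in ranks along the 128 TRAV segments of the annotation, was 31.0 and 39.0 in Tet2KO NOD 1 and 2 and 41.1 and 36.5 in NOD 1 and 2. Between different clones it was 41.0 and 41.3 in Tet2KO NOD and 41.6 and 39.6 in NOD. The mean difference was -3.97 ranks, negative in 4 of 4 libraries (exact sign-flip permutation p = 0.13, the smallest possible, adjusted p = 0.219), but -1.97 without Tet2KO NOD 1. Spearman's rho between the ranks was 0.37 and 0.20 in Tet2KO NOD and 0.03 and 0.09 in NOD. The TRAV array holds near-identical duplicated copies (the D and N names), so ranks are uncertain where a copy was misassigned. Both TRA used the same TRAV in 29 of 846 receptors and the same TRAV and TRAJ in 8. In 1 Tet2KO NOD 1 cell both contigs had the same segments and CDR3, so this cell may hold 1 TRA assembled as 2 contigs, and every value changed little without it.

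Segment usage was compared on distinct receptors: 1692 TRA of dual receptors against 6345 TRA of single-TRA clonotypes. Of 147 TRAV, TRAJ, TRBV and TRBJ segments seen, 121 were frequent enough to test with edgeR, and 3 of them passed an adjusted p of 0.05, or 2.48%, all higher in dual receptors. No TRBV or TRBJ passed. The fitted dispersion was close to 0, so the test treats pools as differing by little more than counting error.

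TRAV15D-1-DV6D-1, a segment of the group shared between the alpha and delta loci, was counted 5, 4, 10 and 10 times in dual receptors of Tet2KO NOD 1, Tet2KO NOD 2, NOD 1 and NOD 2, against 2, 0, 9 and 8 times in single-TRA clonotypes. Its share was thus higher in dual receptors in 4 of 4 pools, and 60.4% of its 48 counts were in dual receptors, against 21.1% of the counts of all TRA. The classes overlap: in Tet2KO NOD 1, the 4 cells of the largest dual clone with only this TRA are among the 5 single-TRA cells behind its count of 2. The log2 fold change was 2.44 ± 0.53 (SE; edgeR adjusted p = 0.000606). The 0 in Tet2KO NOD 2, of 881 TRA, allows a share of up to 0.341%. The 29 dual receptors had 29 different TRB and 21 partner TRAV, 23 of them came from TRB clones of a single cell, and the segment was the lower TRA in 17 and the higher in 12. Without Tet2KO NOD 1 the edgeR adjusted p was 0.067, and without either NOD pool the segment fell below the count minimum. The segment met the count minimum (10 in at least 2 columns) only through dual receptors of the NOD pools, the class where it was more frequent. The adjusted p is conditional on that entry. Near-identical copies of the segment make its name uncertain.

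TRAV3-3 (chr14:53665929-53666506) made up 5.14% and 4.39% of the TRA of dual receptors in Tet2KO NOD 1 and 2 and 4.29% and 3.23% in NOD 1 and 2. In single-TRA clonotypes it made up 1.87% and 2.50% in Tet2KO NOD and 2.85% and 1.97% in NOD. The log2 fold change was 0.75 ± 0.20 (SE; edgeR adjusted p = 0.0273). TRAJ17 (chr14:54201775-54201837) made up 3.27%, 2.19%, 3.31% and 3.46% of the TRA of dual receptors in Tet2KO NOD 1, Tet2KO NOD 2, NOD 1 and NOD 2, against 1.75%, 1.14%, 2.07% and 1.70% in single-TRA clonotypes, with a log2 fold change of 0.82 ± 0.23 (SE; edgeR adjusted p = 0.0373). Both were higher in dual receptors in 4 of 4 pools, and for each of the 3 segments the exact sign-flip permutation test gave p = 0.13, the smallest possible. Leaving out any 1 pool ended the call of TRAV3-3 and of TRAJ17, with edgeR adjusted p from 0.0765 to 0.514.

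The commonest segments of dual receptors did not pass the test. TRAV6N-7 made up 6.26% of the TRA of dual receptors over all pools and 5.47% of those of single-TRA clonotypes, TRAV9-1 4.55% and 3.92%, TRAV5-4 5.85% and 6.90%, and TRAV16N 4.91% and 5.75%. Among TRAJ, TRAJ49 made up 5.14% and 4.55%, TRAJ23 4.73% and 4.65%, TRAJ40 4.67% and 4.26%, and TRAJ31 4.49% and 3.96%. The TRAV5-4 and TRAV16N shares were lower in dual receptors in 4 of 4 pools, with log2 fold changes of -0.24 and -0.23. No segment passed the edgeR test of whether its dual to single ratio differed between Tet2KO NOD and NOD (0 of 121, or 0%), where 3 had an unadjusted p under 0.05; DESeq2 called 0, with 1 under 0.05.

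Rank by UMIs was linked to the TRAV segment. Among dual receptors without tied UMIs, 21 segments were frequent enough to test and 2 passed, or 9.52%. Each receptor gives 1 TRA to each rank, a pairing that the test did not model. The fitted dispersion was close to 0 here too, so the p values rest on counts of receptors. TRAV6D-6 (chr14:52821922-52822359) was the lower TRA in 5, 11, 27 and 9 receptors of Tet2KO NOD 1, Tet2KO NOD 2, NOD 1 and NOD 2, against the higher TRA in 1, 1, 6 and 2. The log2 ratio of lower to higher was 2.32 ± 0.46 (SE; edgeR adjusted p = 7.43e-05). TRAV4-3 (chr14:53598828-53599410) was the lower TRA in 1, 1, 7 and 0 receptors, against the higher TRA in 8, 4, 17 and 10, a log2 ratio of -2.06 ± 0.49 (SE; edgeR adjusted p = 0.000846). Both directions held in all 4 pools. Each segment met the count minimum (10 in at least 2 columns) only through the rank where it was frequent, TRAV6D-6 as lower and TRAV4-3 as higher TRA. Their adjusted p values are conditional on that entry and are not independent support.

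These segments had the same order of UMIs in single-TRA cells, which the ranking did not use. A sole TRA with TRAV6D-6 had a median of 4 UMIs (390 cells), one with TRAV4-3 had 8 (246 cells), and one with a TRAV outside the segments named here had 5 (6563 cells). TRAV6D-6 had 3, 4, 4 and 4.5 UMIs in single-TRA cells of Tet2KO NOD 1, Tet2KO NOD 2, NOD 1 and NOD 2, and TRAV4-3 had 7, 8, 8 and 9. RNA level and capture of the segment by the assay cannot be told apart. Without NOD 1 only 3 segments could be tested and neither of the 2 was called.

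**Figure D5:**
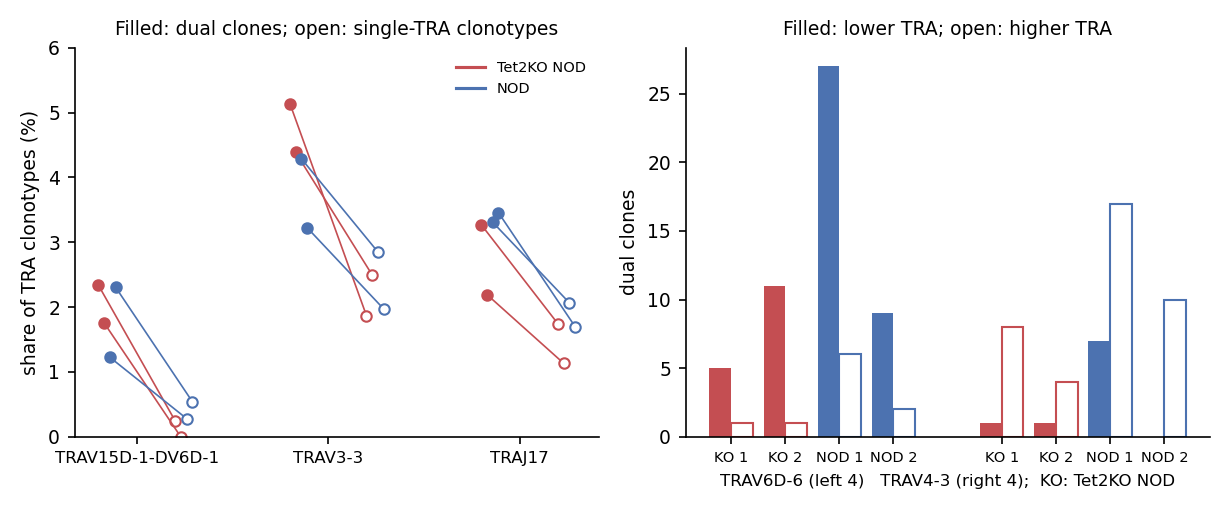
The left panel gives the share of TRA (percent) with each of the 3 segments that passed the test, filled points for dual receptors and open points for single-TRA clonotypes, 1 line per pool. The right panel counts dual receptors in which TRAV6D-6 or TRAV4-3 was the lower TRA (filled bars) or the higher TRA (open bars), ties left out; red is Tet2KO NOD and blue NOD. All 4 pools run the same way for each segment.

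Receptors of known types were counted as lists. Invariant NKT type TRA, TRAV11 family with TRAJ18, which recognise lipids on CD1d, numbered 0 of 1692 in dual receptors and 24 of 6345 in single-TRA clonotypes. MAIT type TRA, TRAV1 with TRAJ33, numbered 0 and 5. The dual count of 0 over all pools allows a share of up to 0.177%, against a single-TRA share of 0.378% for the NKT type and 0.0788% for the MAIT type. Pool by pool it allows up to 1.40% and 1.32% in Tet2KO NOD 1 and 2 and 0.368% and 0.691% in NOD 1 and 2, above the NKT type share of single-TRA clonotypes in the same pools (0.374%, 0.568%, 0.345% and 0.340%), so within a pool a difference was not detectable at this depth. IGRP type TRA, TRAV16 family with TRAJ42, made up 0.532% of the TRA of dual receptors (6 lower and 3 higher TRA) and 0.835% of the others. Insulin type TRA, TRAV5 family with TRAJ53 or TRAJ42, made up 0.946% and 0.930%.

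By position, TRAJ58 to TRAJ40 made up 39.8% of the TRA of dual receptors and 42.1% of the others, TRAJ39 to TRAJ21 39.1% and 38.8%, and TRAJ20 to TRAJ2 21.1% and 19.1%. TRAV segments with a DV name, shared with the delta locus, made up 6.56% and 5.91%. They include TRAV15D-1-DV6D-1, which supplied 29 of their counts in dual receptors (61 higher and 50 lower TRA). In single-TRA clonotypes it supplied 19 of 375. The DV difference is therefore not separate from the call of that segment. Averaged over pools, the dual minus single difference was -2.29 points for TRAJ58 to TRAJ40, 0.419 for TRAJ39 to TRAJ21, 1.87 for TRAJ20 to TRAJ2 and 0.602 for the DV segments. When 1 library was left out, these ran from -2.97 to -1.51, from -0.742 to 1.16, from 1.62 to 2.25 and from 0.305 to 0.991 points, and the DV difference was -0.0511 when both TRA needed at least 3 UMIs. So the sign turned for TRAJ39 to TRAJ21 and for the DV segments.

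Few TRA of either rank were shared with other clones. An identical TRA rearrangement occurred in another TRB clone of the same pool for 2.80%, 4.39%, 6.37% and 2.30% of lower TRA in Tet2KO NOD 1, Tet2KO NOD 2, NOD 1 and NOD 2, against 3.74%, 6.14%, 5.88% and 4.15% of higher TRA (mean difference -1.01 points, exact sign-flip permutation p = 0.25). The CDR3 of the lower TRA averaged 13.9, 14.0, 13.6 and 13.8 amino acids, against 13.7, 13.6, 13.8 and 13.5 for the higher TRA, a difference of 0.213 with a positive sign in 3 of 4 pools (exact sign-flip permutation p = 0.25). Bases between the germline V and J ends averaged 5.57, 5.84, 5.16 and 5.80 in lower TRA, against 4.95, 5.96, 5.72 and 5.27 in higher TRA, while in single-TRA clonotypes they averaged 5.22 to 5.35.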

How the data were processed

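Receptor contigs of 4 islet cell pools were used. The authors deposited, per the file headers, whole-number counts of reads and UMIs for each assembled contig with its segments, CDR3 and flags. Contigs were made with Cell Ranger 7.0.1 on GRCm38 (mm10), per the submitters' processing notes. Its set of reference segments is not stated in those notes or the labels. The tables held 114106599, 85137263, 220516119 and 140478435 reads and 1957, 1664, 6835 and 2889 called cells for Tet2KO NOD 1, Tet2KO NOD 2, NOD 1 and NOD 2.

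Called cells were paired cells when they had 1 TRB and 1 or 2 TRA among high-confidence, full-length, productive contigs. Cells with over 1 TRB were left out, and no doublet caller was run. The members and lists were chosen with earlier results of these data known. Values per pool were compared by exact two-sided tests: permutation of the 4 libraries between genotypes (smallest p 0.33) or sign-flips of within-library differences (smallest p 0.13), adjusted by Benjamini-Hochberg over 4 and 7 comparisons. Segment counts over distinct receptors were tested with edgeR 4.0.16 (quasi-likelihood, library as block, the number of chains as library size, at least 10 in at least 2 columns), with Benjamini-Hochberg adjustment. Scripts were tested on simulated data. Named segments were those passing the test and the 4 commonest TRAV and TRAJ. Coordinates are from GENCODE M21; a UMI is one captured molecule, so intervals cover counting error only.

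Alternatives were each library left out, a minimum of 2 or 3 UMIs for both TRA, thinning to 10 UMIs, other clone definitions, shared barcodes left out, DESeq2 1.42.0, TMM factors, no count filter and each cell counted once.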

Additional observations from a re-analysis of the deposited data

Results flagged for a closer look

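Among 32 contrasts within pools that were checked for genotypes moving in opposite directions, 3 did, and none of these 3 differences between genotypes was tested. Insulin type TRA (TRAV5 family with TRAJ53 or TRAJ42) numbered 0 of 214 and 2 of 228 TRA of dual receptors in Tet2KO NOD 1 and 2, against 9 of 816 and 5 of 434 in NOD 1 and 2. In single-TRA clonotypes they numbered 11 of 802 and 15 of 881 in Tet2KO NOD, against 24 of 3192 and 9 of 1470 in NOD. The dual minus single difference was -1.37 and -0.825 percentage points in the Tet2KO NOD pools and 0.351 and 0.540 points in the NOD pools, a difference of -1.54 points between genotype means. It rests on 16 dual receptors in all.

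A nonproductive TRB was more frequent in dual-TRA than in single-TRA cells of both Tet2KO NOD pools, by 3.54 and 2.36 points, and less frequent in both NOD pools, at -1.53 and -0.770 points. The difference between genotype means was 4.10 points, from 18 and 15 dual-TRA cells with such a contig in Tet2KO NOD 1 and 2 and 50 and 24 in NOD 1 and 2.

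The dual share of TRB clones of 10 or more cells minus that of clones of a single cell was -1.12 and -0.422 points in the Tet2KO NOD pools and 8.02 and 1.97 points in the NOD pools, a difference of -5.77 points between genotype means. In every pool much of this rested on 1 clone. It supplied 38 of the 40 dual-TRA cells of such large clones in Tet2KO NOD 1 and 9 of 13 in Tet2KO NOD 2. In NOD 1 and NOD 2 it supplied 106 of 214 and 42 of 62. Groups of 2 pools are too small to look for a pool standing apart.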

How the results depend on the processing

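Leaving out 1 library moved the dual share difference between -2.08 and -1.79 points, the nonproductive TRA difference between -24.2 and -21.3 points, and the clone-mate difference between -29.0 and -15.3 points. The dual minus single difference in expanded share had no stable sign: it ran from -0.139 to 2.84 points when 1 library was left out, and was -1.99 after thinning, -5.18 without the largest TRB clone of each library and -0.448 without TRB clones of 10 or more cells. It was 2.46 points with at least 2 UMIs for both TRA and 6.16 with at least 3. Its gap between genotypes ran from -7.52 to 1.07 points when 1 library was left out, and was 3.38 without TRB clones of 10 or more cells and 2.48 within set 2. The removal of clones of 10 or more, or of clones rich in other TRA, within-set values and crossed sets were chosen after seeing the data.

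The dual against single comparison of segments called 3, against 0 to 1 without 1 library, 1 with DESeq2, 1 with each cell counted once and 5 without the count filter. DESeq2, each cell counted once and the removal of Tet2KO NOD 2 each called TRAV15D-1-DV6D-1, with adjusted p of 0.000528, 0.00713 and 0.000761. These are not independent support. Counting cells takes cells of a clone as separate: 1 Tet2KO NOD 1 clone held this TRA in 38 dual-TRA cells, against 26 single-TRA cells over all pools. DESeq2 and the removal of Tet2KO NOD 2 used the same count minimum, which the segment met only through dual receptors of NOD pools. The lower against higher comparison called 2, against 0 to 2 without 1 library, 1 with each cell counted once and 1 with at least 2 UMIs for both TRA. TRAV6D-6 was untested without Tet2KO NOD 2, without NOD 1 and with that UMI minimum, since too few receptors passed the count filter. TRAJ23 (log2 fold change 0.02) ran from -0.188 to 0.209 when 1 library was left out and was -0.187 with each cell counted once, TRAJ40 (0.14) ran from -0.0395 to 0.216 and was -0.193 with each cell counted once, and TRAJ31 (0.19) was -0.00812 with each cell counted once. Whether pools of the same set number belong together was not settled. The correlation of set 1 deviations was -0.162 over 125 segments, and 2 pools per genotype are too few for it to show this. With the set as a replicate block, the dual share difference was -1.94 points (exact p = 0.5, the smallest possible over 2 sets) and 3 segments were called, and crossed pairs called 2. With 2 pools per genotype no exact genotype test reaches 0.05, and a second TRA of few UMIs may go unread, so a dual share is a share of cells in which both TRA were read.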
